A study of Mus musculus with 3 samples.

Results

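Aminoacyl-tRNA synthetases join each amino acid to its tRNA, the step that makes amino acids available to the ribosome. Mammalian cells use a cytosolic set of these enzymes for proteins made from nuclear genes and a mitochondrial set, also encoded in the nucleus, for the few proteins made inside mitochondria. The mitochondrial enzymes mostly carry symbols that end in 2, and the glycine enzyme Gars and the lysine enzyme Kars serve both compartments from a single gene. Several cytosolic enzymes sit together in a multi-synthetase complex that is held by the scaffold proteins encoded by Aimp1, Aimp2 and Eef1e1. Transcription of many cytosolic synthetase genes is known to be raised by ATF4, the transcription factor that acts when amino acids are short and that also drives asparagine synthetase (Asns) itself. The 38 genes described here were taken by symbol from a table of 57010 Ensembl genes. The rule used no measured values, although earlier results of these data were known when the genes were chosen. They comprised 20 cytosolic enzyme genes, 15 mitochondrial enzyme genes and the 3 scaffold genes.

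RNA-seq had been done on MBT2, a mouse bladder cancer cell line, to look for genes downstream of Asns. The cells were stably transfected with a plasmid for the short hairpin RNA shAsns#1 or shAsns#2, which target Asns, or with a scramble plasmid, and each of these 3 conditions had 1 library. All 3 lines share the MBT2 background. Stable lines were made, according to the methods, by lentiviral infection and selection with puromycin, and the sources read here do not say whether a line was a pool or a single clone. With 1 library per condition the spread between cultures of one condition was not measured, so the edgeR, DESeq2 and limma-voom p-values below draw only on the spread between the 2 hairpin libraries, and the exact binomial p-values cover counting error alone. The sample labels give RPMI-1640 as the medium and TRIzol for RNA isolation, while the paper's methods give DMEM and a column kit. The treatment protocol in the labels names only shAsns#1 and a vector for all 3 samples, and the groups were taken from each sample's own treatment label, which names its plasmid.

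The libraries held 19167852 (shAsns#1), 22915511 (shAsns#2) and 19326826 (scramble) rounded counts. Asns, the targeted gene, fell to 33.5 CPM (counts scaled for library size by TMM) with shAsns#1 and 27.8 CPM with shAsns#2, against 84.4 CPM in scramble (edgeR log2 fold change -1.46, SE 0.15, adjusted p = 0.007). In such bulk libraries fewer cells with a transcript and less of it per cell cannot be told apart. Of 15 urothelial and epithelial markers, Krt5, Krt20, Upk1b and Upk3a had no counts in any library, Krt8, Krt18, Epcam and Gata3 lay between 1.23 and 5.32 CPM, and the list summed to 14.8 and 17.7 CPM in the shAsns libraries and 10.7 CPM in scramble. Urothelial markers were thus absent or low in all 3 libraries of these cells, which are labelled as bladder cancer cells. Among 8 leukocyte markers Tyrobp, C1qa and Cd3e had no counts, and the list, nearly all of it Cd68 and Cd14, summed to 87.4 and 74.0 CPM in the shAsns libraries and 81.1 CPM in scramble. The 8 fibroblast markers summed to 3294 and 2822 CPM in the shAsns libraries and 4327 CPM in scramble, while Thy1 was at 0. The lower sum in the shAsns libraries was that of Vim, at 2584 and 1951 CPM in the shAsns libraries and 3668 CPM in scramble, which edgeR did not call (adjusted p = 0.18). Dcn, which encodes the matrix proteoglycan decorin, was the only marker of this list that edgeR called, and rose to 18.8 and 25.7 CPM in the shAsns libraries, against 6.97 CPM in scramble (log2 fold change 1.68, SE 0.24, adjusted p = 0.018). Col3a1 and Col1a2 were also above scramble with both hairpins, without a call. Pdgfrb and Col1a1 lay below scramble with both hairpins, also without a call. Pdgfrb measured 16.2 and 22.9 CPM in the shAsns libraries and 33.2 CPM in scramble. The lack of a call depended on the setting for Vim, which DESeq2 called lower. Both Vim and Pdgfrb were called lower by edgeR with total-count scaling or with no filter. So was Cd14, at 19.2 and 17.2 CPM in the shAsns libraries and 28.4 CPM in scramble. Krt8, at 3.63 and 4.48 CPM in the shAsns libraries and 1.23 CPM in scramble, had an edgeR log2 fold change of 1.72 (adjusted p = 0.067). It was called higher by edgeR with total-count scaling, with no filter or with at least 10 counts in every library. Gata3 was called higher with no filter. The part of these differences in the results below was not tested.

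All 38 genes passed the filter of at least 10 counts in at least 1 library, as did 14003 genes in all. Levels of different genes are compared as TPM, which also divides by gene length, computed here from the counts and the deposited gene lengths and used only within a library. The cytosolic enzymes were the more abundant set, with a median of 183 TPM with shAsns#1, 226 TPM with shAsns#2 and 138 TPM in scramble, and the mitochondrial enzymes had medians of 13.7, 16.4 and 11.7 TPM in the same order. Sars, the serine enzyme, was the highest gene in every library at 990, 1104 and 791 TPM, followed by Nars, the asparagine enzyme, at 589, 778 and 444 TPM. The 3 highest cytosolic genes held 39.2% of the summed cytosolic TPM with shAsns#1, 39.7% with shAsns#2 and 40.0% in scramble. The lowest cytosolic gene was Farsb, the beta subunit of the phenylalanine enzyme, at 89.2, 77.0 and 76.7 TPM. Lars2, the mitochondrial leucine enzyme, stood well above the rest of its set at 89.1, 131 and 122 TPM, and in shAsns#2 and scramble it was the only mitochondrial enzyme above the lowest cytosolic one. The next mitochondrial gene was Iars2, the isoleucine enzyme, at 44.5, 55.9 and 32.3 TPM. The lowest was Mars2, the methionine enzyme, at 3.75, 4.27 and 3.28 TPM, a value that depends on its deposited length of 11294 bases.

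**Figure D1:**
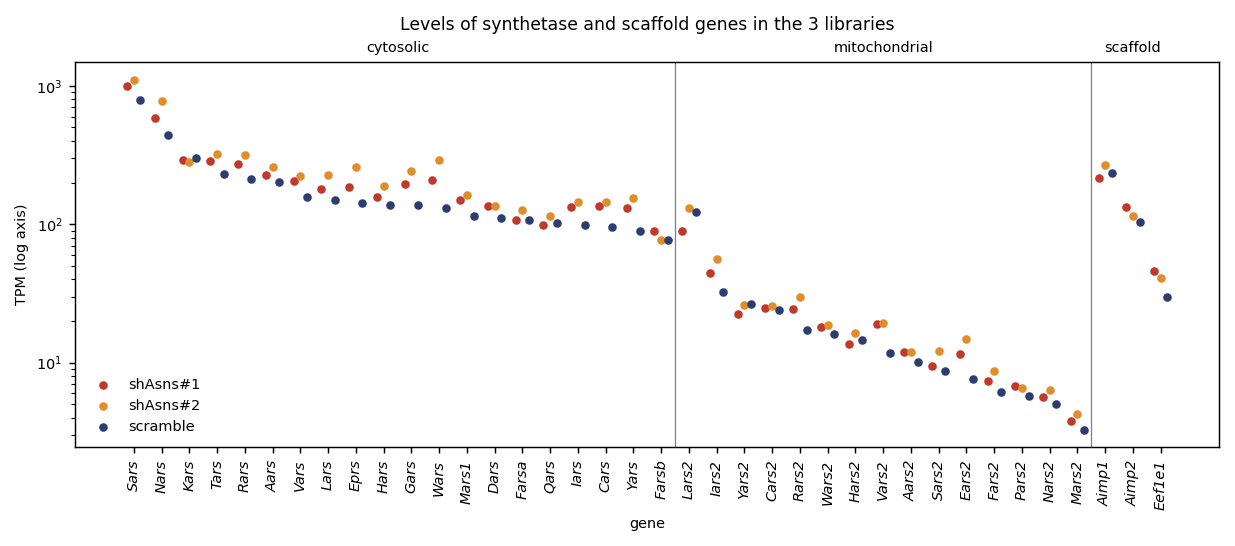
Level of each gene in TPM on a log axis, 1 point per library, with genes ordered within each set by their scramble level. TPM is not TMM-scaled, so the plot compares genes within a library and not libraries. Cytosolic enzyme genes lie between 76.7 and 1104 TPM and mitochondrial ones between 3.28 and 131 TPM, with Lars2 the highest of the mitochondrial set.

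To ask whether the synthetase genes differed between Asns knockdown and scramble cells, edgeR's quasi-likelihood test was run on all 14003 genes with the 2 hairpin libraries as one group. This leaves 1 residual degree of freedom, and the single scramble library is taken to vary as the hairpin libraries do. None of the 38 genes passed at an adjusted p under 0.05 in either direction, where 1.14% of all genes were called higher and 1.51% lower. At an unadjusted p under 0.05, 10 of the 38 were higher and 0 lower, beside 9.11% of all genes higher and 10.7% lower. The 10 were the cytosolic enzyme genes Wars, Yars, Gars, Cars, Eprs and Nars and the mitochondrial enzyme genes Vars2, Iars2, Ears2 and Rars2. DESeq2 called 1 of the 38 higher (Wars), where 1.1% of the genes it tested were, and limma-voom called 0, where 0.393% of all genes were. When libraries were scaled by total counts alone, edgeR called 8 of the 38 genes higher (4 cytosolic and 4 mitochondrial), where 5.28% of all genes were. Most cytosolic genes nevertheless lay above scramble with both hairpins, as the following counts and medians show. Of the 20 cytosolic genes, 17 had a log2 ratio above 0 with shAsns#1 and 16 with shAsns#2, where 50.0% and 49.6% of all genes did. Of the 15 mitochondrial genes, 11 and 10 lay above 0. The median log2 ratio of the cytosolic genes was 0.28 with shAsns#1 and 0.29 with shAsns#2, that of the mitochondrial genes 0.13 and 0.12, and that of all genes 0.00 and -0.00. Both ratios share the scramble library and are not independent. The difference between the cytosolic and mitochondrial sets was not tested.

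**Figure D2:**
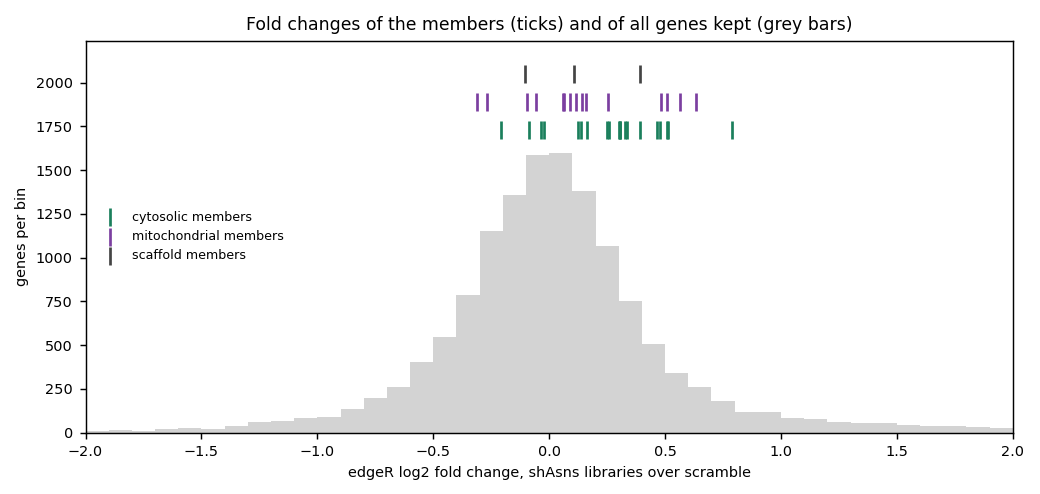
Histogram of the edgeR log2 fold change, shAsns libraries over scramble, for all genes kept (grey bars, genes per bin of 0.1), with each synthetase or scaffold gene as a tick above it. The axis is limited to -2 to 2, and the ticks lie between -0.31 (Lars2) and 0.79 (Wars).

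Summed over the set, the cytosolic genes came to 7046 CPM with shAsns#1 and 7388 CPM with shAsns#2, against 5921 CPM in scramble. The mitochondrial genes came to 583 and 652 CPM in the shAsns libraries, against 602 CPM in scramble, and their sum lay on either side of scramble. This rested on Lars2. Without it, an alternative chosen after seeing the data, the other 14 mitochondrial genes came to 402 and 414 CPM in the shAsns libraries, against 342 CPM in scramble, or 1.178 and 1.213 times scramble, where the cytosolic sum was 1.19 and 1.25 times scramble. Counting intervals on each ratio, which cover the error of counting reads in 2 libraries and no spread between cultures, lay above 0 for 17 of 20 cytosolic genes with shAsns#1 and 15 with shAsns#2, and below 0 for 2 and 2. Of all genes, 24.9% and 26.3% had an interval above 0 and 26.0% and 30.5% had one below 0, and these intervals narrow as counts rise. Among the 15 mitochondrial genes they lay above 0 for 4 and 5, below 0 for 2 and 2, and held 0 for 9 and 8. Apart from Lars2 and Iars2, the mitochondrial genes had fewer counts than the cytosolic genes and so wider intervals, as the plot of ratios shows. Past a 1.5-fold difference with an exact binomial adjusted p of at most 0.05, a test of 2 libraries rather than of conditions, Wars and Vars2 were higher with shAsns#1, 2 of 38 genes where 5.71% of all genes were called higher and 6.03% lower. With shAsns#2, Wars, Eprs and Ears2 were higher, 3 of 38, where 7.64% of all genes were called higher and 8.36% lower. None of the 38 was called lower by this rule, and these shares of higher genes are close to those of all genes.

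**Figure D3:**
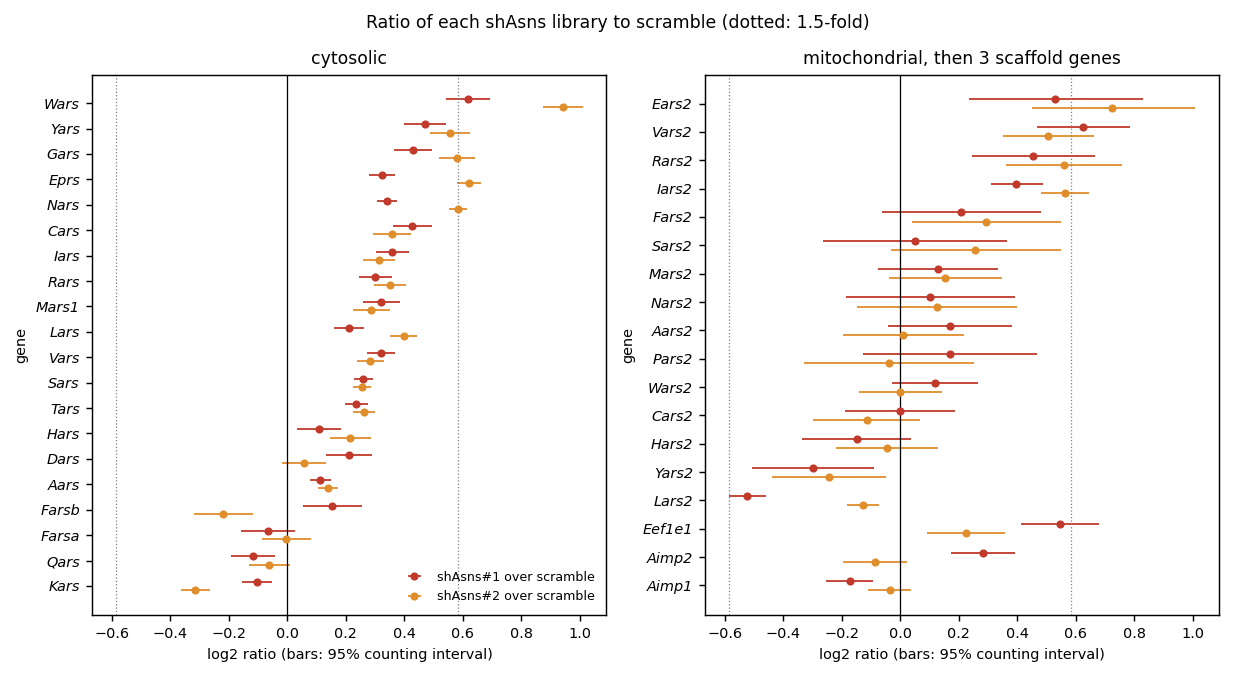
Log2 ratio of each shAsns library to scramble for every gene, with the 95% counting interval as a bar and a 1.5-fold difference as dotted lines. Wars has the highest ratio with shAsns#2 (0.94) and Lars2 the lowest with shAsns#1 (-0.52). The mitochondrial genes other than Lars2 and Iars2 have wider bars than the cytosolic genes.

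Wars (ENSMUSG00000021266), the tryptophan enzyme, whose human counterpart is known to be induced by interferon-gamma, had the largest ratios among the cytosolic genes. It measured 198 CPM with shAsns#1 and 248 CPM with shAsns#2, against 129 CPM in scramble. Both hairpin libraries were higher than scramble, with log2 ratios of 0.62 (95% counting interval 0.54 to 0.69) and 0.94 (0.87 to 1.01). The edgeR log2 fold change was 0.79 (SE 0.18, adjusted p = 0.064), and the call depended on tool and filter, since the adjusted p was 0.011 by DESeq2 and 0.042 by edgeR on genes with at least 10 counts in every library, and lay between 7.3e-05 (no filter) and 0.093 (DESeq2 size factors) over the alternatives run.

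The enzymes next to asparagine synthetase in amino acid use differed among themselves. Nars (ENSMUSG00000024587) charges tRNA with asparagine, the product of the Asns reaction, and measured 843 CPM with shAsns#1 and 997 CPM with shAsns#2, against 666 CPM in scramble. The log2 ratios were 0.34 (0.31 to 0.38) and 0.58 (0.55 to 0.61), so shAsns#2 was the higher library, and the edgeR log2 fold change was 0.47 (SE 0.20, adjusted p = 0.25). Nars2 (ENSMUSG00000018995), its mitochondrial counterpart, measured 11.1 and 11.2 CPM in the shAsns libraries and 10.3 CPM in scramble, with counting intervals that held 0 for both ratios (0.10 and 0.12) and an edgeR log2 fold change of 0.11 (SE 0.19, adjusted p = 0.79). Dars (ENSMUSG00000026356) charges tRNA with aspartate, the substrate of the Asns reaction. It measured 153 CPM with shAsns#1 and 138 CPM with shAsns#2, against 132 CPM in scramble, with log2 ratios of 0.21 (0.13 to 0.29) and 0.06 (-0.02 to 0.13), of which only the first had an interval off 0.

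The other cytosolic genes with the highest averaged ratios were Yars, Gars and Eprs. Yars, the tyrosine enzyme, measured 197 and 209 CPM in the shAsns libraries and 142 CPM in scramble (edgeR log2 fold change 0.51, SE 0.14, adjusted p = 0.11). Gars, the glycine enzyme of both compartments, measured 241 and 267 CPM in the shAsns libraries and 179 CPM in scramble (0.51, SE 0.15, adjusted p = 0.13). Eprs, which joins the glutamate and proline enzymes in one protein of the complex, measured 479 and 589 CPM in the shAsns libraries and 383 CPM in scramble (0.48, SE 0.19, adjusted p = 0.23). All 3 were higher in both hairpin libraries, with log2 ratios between 0.32 and 0.62. Cars, the cysteine enzyme, was close behind them at 227 and 216 CPM in the shAsns libraries and 169 CPM in scramble (0.39, SE 0.14, adjusted p = 0.18). The remaining genes above scramble with both hairpins were Iars, Rars, Mars1, Lars, Vars, Sars, Tars, Hars, Dars and Aars, with log2 ratios between 0.06 and 0.40. Aars, the alanine enzyme, was the lowest of these on average, at 683 and 697 CPM in the shAsns libraries and 632 CPM in scramble.

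At the low end of the cytosolic set stood Kars, Qars and the subunits of the phenylalanine enzyme. Kars, the lysine enzyme, measured 323 CPM with shAsns#1 and 279 CPM with shAsns#2, against 347 CPM in scramble, with log2 ratios of -0.10 (-0.16 to -0.05) and -0.31 (-0.36 to -0.26) and an edgeR log2 fold change of -0.21 (SE 0.16, adjusted p = 0.53). Qars, the glutamine enzyme, measured 144 and 150 CPM in the shAsns libraries and 157 CPM in scramble. Both of these complex members lay below scramble with each hairpin, by amounts that edgeR did not call. Under total-count scaling the log2 ratio of Qars with shAsns#2 was instead 0.05, above scramble. Farsa and Farsb encode the alpha and beta subunits of a single enzyme. Farsa measured 103 and 107 CPM in the shAsns libraries and 107 CPM in scramble, and both counting intervals held 0. Farsb measured 90.8 CPM with shAsns#1 and 70.1 CPM with shAsns#2, against 81.6 CPM in scramble. Its log2 ratio was 0.15 (0.05 to 0.25) with shAsns#1 and -0.22 (-0.32 to -0.12) with shAsns#2, so the hairpin libraries lay on opposite sides of scramble, and the edgeR log2 fold change was -0.02.

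By place in the cell, the 8 enzymes of the multi-synthetase complex had median log2 ratios of 0.26 and 0.30, and the 12 cytosolic genes outside it had medians of 0.29 and 0.27. Of the complex enzymes, 6 of 8 lay above scramble with each hairpin. The scaffold genes did not move as one. Aimp1 measured 127 and 140 CPM in the shAsns libraries and 143 CPM in scramble, with log2 ratios of -0.17 and -0.04. Aimp2 measured 81.9 and 63.4 CPM in the shAsns libraries and 67.3 CPM in scramble, with ratios of 0.28 and -0.09. Eef1e1 measured 60.7 and 48.5 CPM in the shAsns libraries and 41.5 CPM in scramble, with ratios of 0.55 (0.41 to 0.68) and 0.22 (0.09 to 0.36) and an edgeR log2 fold change of 0.39 (SE 0.17, adjusted p = 0.26). Only Eef1e1 was above scramble with both hairpins, although total-count scaling put Aimp2 at 0.02 and Aimp1 at 0.07 with shAsns#2. Synthetases also fall into 2 structural classes by the fold of the catalytic domain. The 19 class I genes had median ratios of 0.32 and 0.35, the 16 class II genes 0.16 and 0.13, and within the cytosolic set the 10 genes of class I had medians of 0.32 and 0.35 and the 10 of class II had 0.18 and 0.18. The genes past 1.5-fold, Wars, Eprs, Vars2 and Ears2, were all counted as class I, Eprs for its glutamate enzyme, which was read after their values were known.

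Among the mitochondrial genes, 4 stood apart from the rest. Ears2, the glutamate enzyme, measured 12.3 CPM with shAsns#1 and 14.1 CPM with shAsns#2, against 8.52 CPM in scramble (edgeR log2 fold change 0.63, SE 0.20, adjusted p = 0.14). Vars2, the valine enzyme, measured 43.5 and 40.0 CPM in the shAsns libraries and 28.2 CPM in scramble (0.57, SE 0.15, adjusted p = 0.091). Rars2, the arginine enzyme, measured 23.9 and 25.7 CPM in the shAsns libraries and 17.5 CPM in scramble (0.51, SE 0.16, adjusted p = 0.14). Iars2 measured 127 and 143 CPM in the shAsns libraries and 96.5 CPM in scramble (0.48, SE 0.14, adjusted p = 0.12). In all 4 both hairpin libraries were higher than scramble and both counting intervals lay above 0. The next gene, Fars2 for phenylalanine, measured 12.9 and 13.7 CPM in the shAsns libraries and 11.2 CPM in scramble, and only its shAsns#2 interval lay above 0 (0.04 to 0.55).

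Lars2 and Yars2 lay below scramble. Lars2 measured 181 CPM with shAsns#1 and 238 CPM with shAsns#2, against 260 CPM in scramble, with log2 ratios of -0.52 (-0.59 to -0.46) and -0.13 (-0.18 to -0.07) and an edgeR log2 fold change of -0.31 (SE 0.19, adjusted p = 0.40). The 2 hairpin libraries differed here by more than shAsns#2 differed from scramble. The counts of Lars2 were not whole in any library, so reads shared with similar genes could have been split by the estimator. The same held for Eprs, Hars, Kars, Qars, Sars, Tars, Yars, Cars2, Hars2 and Iars2. Yars2, the tyrosine enzyme, measured 18.4 and 19.04 CPM in the shAsns libraries and 22.6 CPM in scramble, with an edgeR log2 fold change of -0.27 (SE 0.16, adjusted p = 0.39). Hars2 measured 23.8 and 25.5 CPM in the shAsns libraries and 26.4 CPM in scramble, Cars2 24.7 and 22.8 CPM against 24.7 CPM, and Wars2 41.8 and 38.5 CPM against 38.5 CPM. These 3 genes, for histidine, cysteine and tryptophan, had counting intervals that held 0 with both hairpins, as did Sars2, Mars2, Nars2, Aars2 and Pars2.

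For 12 amino acids a cytosolic and a mitochondrial gene could be set side by side. The cytosolic gene was the more abundant in all 12 pairs, with a median TPM ratio of 11.3 with shAsns#1 (2.01 to 105), 11.5 with shAsns#2 (1.74 to 122) and 11.0 in scramble (1.21 to 90.6), the leucine pair being the closest and the asparagine and serine pairs the farthest apart. The cytosolic gene had the higher log2 ratio to scramble in 8 of 12 pairs with each hairpin, and the median of the difference, cytosolic minus mitochondrial, was 0.22 with shAsns#1 (-0.30 to 0.77) and 0.20 with shAsns#2 (-0.25 to 0.94). In the tyrosine pair the difference was 0.77 and 0.80, in the leucine pair 0.73 and 0.53, and in the tryptophan pair 0.50 and 0.94. The valine, isoleucine and arginine pairs went the other way with both hairpins, with differences between -0.30 and -0.04. Hars and Hars2 are neighbouring protein-coding genes in the RefSeq annotation, both had counts that were not whole, and reads shared between them could have been split by the estimator.

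**Figure D4:**
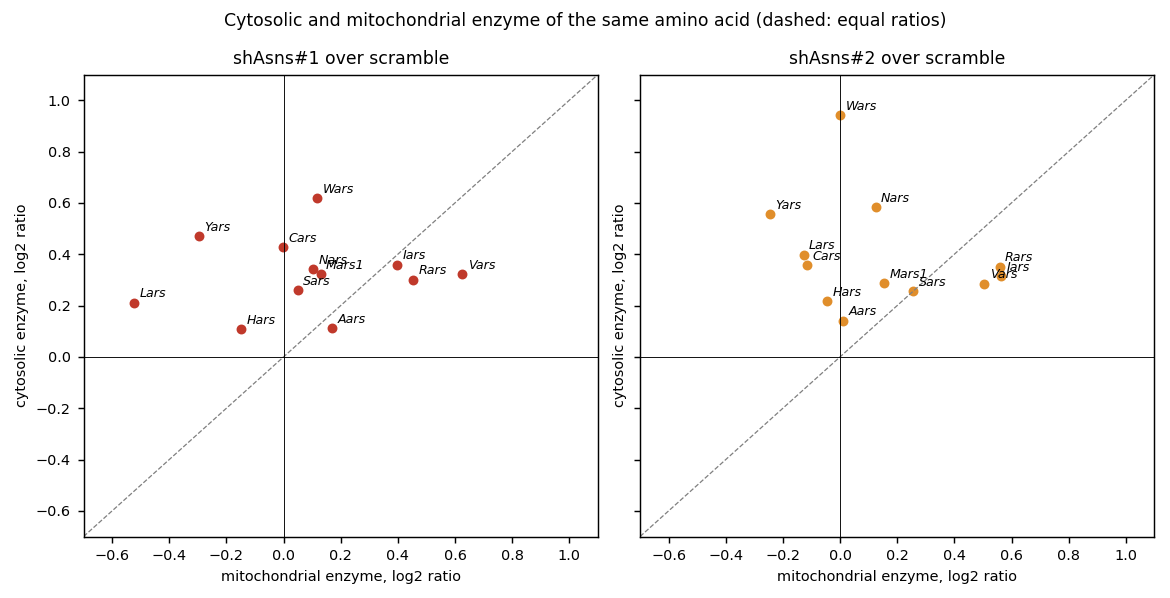
Log2 ratio to scramble of the cytosolic gene (vertical axis, named) against that of the mitochondrial gene for the same amino acid (horizontal axis), for shAsns#1 on the left and shAsns#2 on the right. Of 12 pairs, 8 lie above the dashed line of equal ratios in each panel, with Yars, Lars and Wars far above it and Vars, Iars and Rars below it.

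The libraries of the 2 hairpins were also compared directly, which does not use scramble. Of the 38 genes, 23 had a log2 ratio above 0 for shAsns#2 over shAsns#1, where 49.9% of all genes did, and 0 were called past 1.5-fold, where 2.33% of all genes were called higher and 2.58% lower. The cytosolic median was 0.04 and the mitochondrial median 0.05. The widest differences were those of Lars2 (0.40, 0.33 to 0.46) and Wars (0.32, 0.26 to 0.38), higher with shAsns#2, and of Farsb (-0.37, -0.47 to -0.28), Aimp2 (-0.37, -0.47 to -0.27) and Eef1e1 (-0.32, -0.44 to -0.20), lower with shAsns#2. Counting intervals lay off 0 for 17 of the 38 genes, 11 above and 6 below, where 18.1% of all genes lay above 0 and 21.5% below. Of the 17, Lars2 and Iars2 were mitochondrial.

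**Figure D5:**
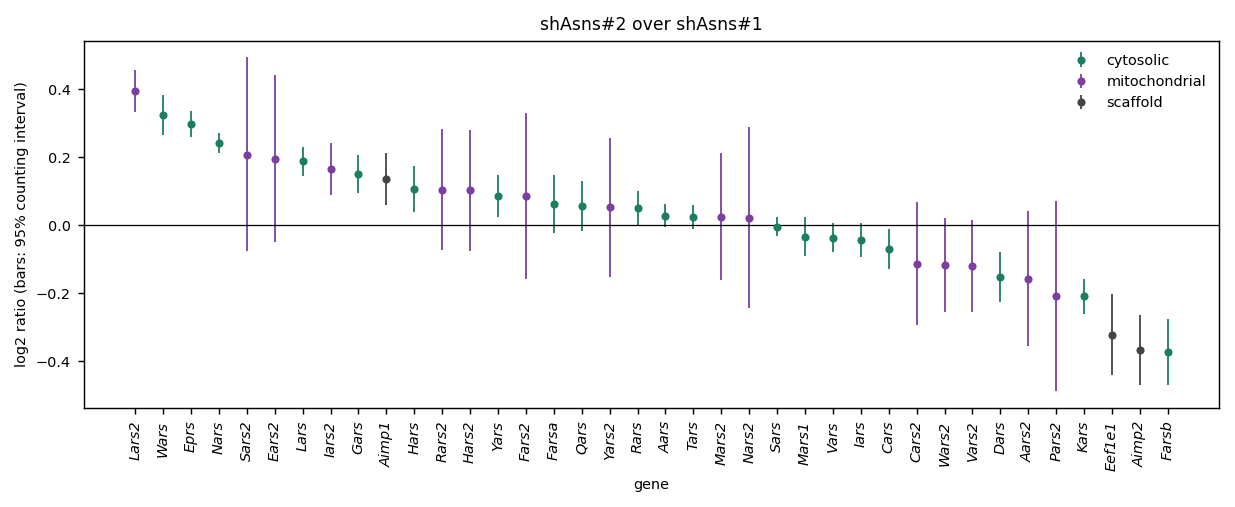
Log2 ratio of shAsns#2 to shAsns#1 for every gene in descending order, with the 95% counting interval as a bar and the gene's set by colour. Lars2 is at the left end (0.40) and Farsb at the right end (-0.37).

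Asns and several synthetase genes carry a C/EBP-ATF response element (CARE), to which ATF4 binds, near their starts. Its core was searched as TGATGNAA on both strands in RefSeq promoter windows of 300 bases, 250 before to 50 after the gene's start (build GRCm38.p6). A window was matched for 29 of the 38 genes. The core was found in 5 of 13 cytosolic windows (Aars, Gars, Iars, Tars and Yars), 0 of 13 mitochondrial windows and 0 of 3 scaffold windows, where 3.97% of 32851 windows held it. The 5 stretches are shown because they are the synthetase promoters in which the motif was found. Each runs 5′ to 3′ along the gene from 120 bases before its start to 30 after, with the core in capitals on either strand, TTNCATCA being its reverse complement. They lie at chr8:111033722-111033871 (plus strand), chr6:55037881-55038030 (plus), chr13:49682010-49682159 (plus), chr15:11399629-11399778 (minus) and chr4:129189783-129189932 (plus).
Aars: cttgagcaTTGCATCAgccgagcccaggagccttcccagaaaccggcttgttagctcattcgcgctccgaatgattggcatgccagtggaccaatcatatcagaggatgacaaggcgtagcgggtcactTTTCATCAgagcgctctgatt
Gars: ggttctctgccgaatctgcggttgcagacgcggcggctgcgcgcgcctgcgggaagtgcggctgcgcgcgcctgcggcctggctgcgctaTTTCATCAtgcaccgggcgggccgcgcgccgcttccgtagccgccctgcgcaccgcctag
Iars: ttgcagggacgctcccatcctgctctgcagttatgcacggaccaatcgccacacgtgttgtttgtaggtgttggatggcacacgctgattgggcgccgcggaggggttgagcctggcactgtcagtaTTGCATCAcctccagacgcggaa
Tars: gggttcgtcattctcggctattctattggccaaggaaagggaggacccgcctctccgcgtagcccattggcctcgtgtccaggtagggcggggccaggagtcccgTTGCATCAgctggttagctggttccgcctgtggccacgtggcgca
Yars: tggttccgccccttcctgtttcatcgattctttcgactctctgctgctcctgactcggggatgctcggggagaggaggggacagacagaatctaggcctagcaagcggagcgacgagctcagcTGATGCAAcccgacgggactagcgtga

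Aars held the core at 112 bases before the start and again 10 bases after it, and Gars and Tars held it 30 and 15 bases before the start. In Iars and Yars it lay 8 and 4 bases after the start. The 5 genes had a median log2 ratio of 0.36 with shAsns#1 and 0.31 with shAsns#2, and the 8 cytosolic genes with a window and no core had medians of 0.18 and 0.03. The ranges overlapped, since Aars, with 2 matches, had ratios of 0.11 and 0.14, while Eprs, with none, had 0.32 and 0.62. Kars, Qars, Farsa and Farsb, the low end of the cytosolic set, were all among the 8 without a core. The cytosolic genes Cars, Hars, Lars, Nars, Rars, Vars and Wars had no window. They lay above scramble with both hairpins, at ratios between 0.11 and 0.94, and enter neither median. Whether the core and the ratio go together was not tested. The mitochondrial genes Vars2, Rars2, Ears2 and Iars2, with ratios between 0.40 and 0.73, held no core in their windows. Cores of interferon elements were searched in the same windows. The core of the interferon-stimulated response element, 2 GAAA repeats with 2 bases between them, was found in 1 of 13 cytosolic windows (Qars) and no mitochondrial one, where 3.44% of all windows held it. TTCNNNGAA, from the gamma-activated site, which reads the same on both strands, was found in Aars, Kars, Nars2 and Eef1e1, where 8.3% of all windows held it. No window was matched for Wars.

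At the edgeR threshold, 1.14% of all genes were called higher and 1.51% lower. None of 6 genes for delivery of charged tRNA to the ribosome was called. Of 26 other genes of the amino acid response, 23 passed the count filter, and edgeR called 4 higher and 1, Asns itself, lower. The 4 were Trib3, at 192 and 235 CPM in the shAsns libraries and 91.0 CPM in scramble, Chac1, Slc7a11 and Ddit3, with log2 fold changes of 1.23, 1.19, 0.92 and 0.70. Slc7a11 and Ddit3 were called neither with DESeq2 size factors nor by limma-voom. Chac1 was not called by limma-voom either (adjusted p = 0.058), which left Trib3 as the only one called higher there. Of the 23 genes, 19 lay above scramble with shAsns#1 and 20 with shAsns#2, where 50.0% and 49.6% of all genes did. Below scramble lay 4 and 3, among them Asns and Cebpb with both hairpins. The median log2 ratio of the 23 genes was 0.37 with shAsns#1 and 0.46 with shAsns#2, beside 0.28 and 0.29 for the cytosolic synthetases. Atf4 itself measured 399 and 445 CPM in the shAsns libraries and 351 CPM in scramble (log2 fold change 0.27, SE 0.17, adjusted p = 0.42).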

How the data were processed

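RNA-seq had been done on MBT2 cells with shAsns#1, shAsns#2 or scramble, 1 library each. The authors deposited estimated counts for each Ensembl gene, unscaled, with the gene length in bases. Which program counted the reads, on which genome build and annotation, is not stated in the paper, labels or file header. The submitters' processing notes name Bowtie 0.12.2 without saying what it did. Between 32.6% and 33.0% of the counts above 0 in each library were not whole (tolerance 1e-09), and 15 of the 38 genes had such a count, so the estimator could have split reads between similar genes. Symbols came from GENCODE M21 for 52029 of 57010 IDs.

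Expected counts were rounded to whole numbers, and a gene was kept where any library held at least 10 counts. CPM used TMM-scaled library sizes, and TPM used unscaled counts and the deposited length. Log2 ratios used a prior count of 0.5, and 95% counting intervals were exact conditional binomial intervals, which cover counting error only. The hairpin libraries were tested as one group against scramble in edgeR 4.0.16 (glmQLFit and glmQLFTest, Benjamini-Hochberg adjusted p under 0.05, 1 residual degree of freedom, biological coefficient of variation 11.6%). Pairs of libraries were compared by an exact binomial test (adjusted p of at most 0.05 and over 1.5-fold). Scripts were tested on simulated data. Alternatives were DESeq2 1.42.0 size factors or total counts, other filters, a prior count of 2, the DESeq2 and limma 3.58.1 (voom) tests, a log2 ratio over 1.5, the fold alone, and leaving out each hairpin. R 4.3.3 and Python 3.11.15 were used.

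The genes and lists were chosen with earlier results of these data known. Values were printed for the 5 highest and 5 lowest averaged ratios of the cytosolic and of the mitochondrial genes, Nars, Nars2, Dars, Wars, the highest and lowest levels, every scaffold gene, Asns, Atf4 and at most 4 called genes of each other list. Cars, Iars2 and Lars2 were also read for their position in those orders. A list of other tRNA charging genes is not reported here.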

Additional observations from a re-analysis of the deposited data

Results flagged for a closer look

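Farsb, the beta subunit gene of the phenylalanine enzyme, had a log2 ratio to scramble of 0.154 with shAsns#1 and -0.219 with shAsns#2. It was singled out because the hairpin libraries moved in opposite directions, with both counting intervals off 0. Under total-count scaling the ratios were 0.19 and -0.11, still on opposite sides of scramble. With 1 library per hairpin the difference was not tested over replicates. Its partner subunit gene Farsa had ratios of -0.07 and -0.00.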

How the results depend on the processing

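The spread between cultures of one condition cannot be measured with 1 library each, and all ratios to scramble rest on 1 scramble library. Where edgeR called 0 cytosolic genes higher, total-count scaling called 4 (Wars, Yars, Gars and Eprs), no count filter 3, at least 10 counts in every library 1, and the DESeq2 test 1. Where it called 0 mitochondrial genes higher, total counts called 4 and no filter 3. The shares of all genes called higher were 5.28% by total counts, 2.97% with no filter, 1.59% with the filter in every library and 1.1% by DESeq2. Neither DESeq2 size factors nor limma-voom called any of the 38 genes higher, and no setting run called one lower. Total-count scaling moved the median log2 ratio of all genes by 0.04 with shAsns#1 and 0.11 with shAsns#2.

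The cytosolic median ratio with shAsns#1 was 0.27 by DESeq2 size factors and 0.32 by total counts. With shAsns#2 it was 0.29 by size factors, 0.40 by total counts, 0.29 with no filter and 0.29 with the filter in every library. The mitochondrial median with shAsns#1 was 0.12 by size factors and 0.17 by total counts. With shAsns#2 it was 0.13 by size factors, 0.24 by total counts, 0.13 with no filter and 0.13 with the filter in every library. The median of the ratios averaged over both hairpins was 0.30 for cytosolic and 0.11 for mitochondrial genes, and leaving out either hairpin gave 0.28 to 0.29 and 0.12 to 0.13. Past a log2 ratio of 1.5, 0 cytosolic and 0 mitochondrial genes remained with either hairpin. Past 1.5-fold with shAsns#2, total counts gave 5 cytosolic and 4 mitochondrial genes, and both no filter and the filter in every library gave 4 cytosolic genes. The shares of all genes past it were 10.8%, 4.5% and 6.77% in these settings, against 7.64% in the report. Of single log2 ratios, the sign changed in 12 of 114 by total counts, 2 of 114 by size factors, 2 of 76 with the filter in every library, 1 of 76 with no filter and 0 of 76 with a prior count of 2. The cause was not tested. No paired analysis was possible because each condition had 1 library.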
